A study of Homo sapiens with 8 samples.

Results

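The 35 genes described here encode the machinery that brings proteins to the endoplasmic reticulum (ER), puts them through or into its membrane and trims them there. They are the Sec61 channel and its partners, the signal peptidase complex and signal peptide peptidase, the signal recognition particle (SRP) and its receptor, and the ER membrane protein complex (EMC). They were taken by gene symbol from the 60664 genes of the deposited count tables, and all 35 were found and passed the filter on low counts in every fit. By where their proteins sit, 25 were grouped as membrane members, 6 as cytosolic SRP proteins and 3 as cytosolic EMC subunits, and SRPRA, which is held on the membrane by its partner, was kept apart.

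APEX-seq captures RNA close to a peroxidase, APEX2, that tags nearby molecules with biotin so that streptavidin beads can pull them out. HEK293T, a human embryonic kidney cell line, expressed APEX2 either at the outer mitochondrial membrane (OMM) or, through a nuclear localisation signal (NLS), in the nucleus. There were 4 groups of 2 libraries: labelled OMM cells, unlabelled OMM control cells, labelled NLS cells and unlabelled NLS control cells. APEX2 was thus present in the controls too, and a control library holds what came through the pull-down in unlabelled cells, and is no measure of whole-cell RNA. The OMM libraries were made with the TruSeq mRNA kit, which selects poly(A) RNA, and the NLS libraries with a SMARTer total RNA kit, so compartment and kit cannot be told apart. For release of the captured RNA the series text names TRIzol at OMM and Proteinase K at NLS, but the sample labels give an RNeasy kit for every sample, and which applies was not settled. The labels do not give the APEX2 promoter, the labelling reagent, whether a line was 1 clone or whether libraries came from separate cultures. The p-values therefore speak only of how these libraries vary, and that variation may be technical.

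Total counts were 34705126 to 52421161 per OMM library and 8039176 to 21096586 per NLS library, and the labelled NLS libraries were the shallowest. Levels are CPM, read counts brought to a common library size with TMM factors, and a floor of 3 counts came to 0.0566 to 0.310 CPM. The HEK293T markers LIN28B, IGF2BP1, NEFM and VIM were at 31.7 CPM or more in all 8 libraries, while PAX2 ran from 0 to 5.07 CPM. The leukocyte, hepatocyte and endothelial markers PTPRC, ALB and PECAM1 did not pass 0.517 CPM, and COL1A1, a fibroblast marker, ran from 1.57 to 26.4 CPM. Libraries are named by the numbers in the column headers, labelled 2 and 3 and control 3 and 4 at OMM, and 1 and 3 in both arms at NLS.

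Many secretory and membrane proteins carry a hydrophobic stretch, at the start (a signal peptide) or further in, that the SRP binds as it leaves the ribosome. The SRP docks at its receptor on the ER, the ribosome docks on the Sec61 channel, and signal peptidase removes the signal peptide, while the EMC inserts some membrane segments that Sec61 handles poorly. mRNAs of ER membrane proteins can therefore be held at the ER through the chain being made, and the ER touches mitochondria at contact sites.

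The hydrophobic amino acids phenylalanine, leucine, isoleucine, methionine and valine are all encoded by codons with T (U in the RNA) as the second letter. In each gene the stretch of 20 codons richest in such codons was taken from 1 annotated transcript (GENCODE 29, GRCh38). The 25 membrane members had 9 to 17 such codons in that stretch (median 13), the 6 cytosolic SRP proteins 8 to 11 (median 9.5), the 3 cytosolic EMC subunits 8 to 10, and SRPRA 12. The stretches below are shown to set membrane members with contrasting OMM values beside SRP proteins. Capitals mark each T that is the second letter of its codon, sequences run 5′ to 3′ on the coding strand, and a span across 2 coding exons includes the intron, whose bases are not printed.
SPCS3, codons 9 to 28, chr4:176320101-176320160, plus strand, 1 coding exon: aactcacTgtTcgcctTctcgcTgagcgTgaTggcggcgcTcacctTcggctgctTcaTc
SSR1, codons 1 to 20, chr6:7313061-7313120, minus strand, 1 coding exon: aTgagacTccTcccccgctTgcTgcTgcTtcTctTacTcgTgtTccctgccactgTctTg
SEC61A1, codons 146 to 165, chr3:128060185-128060540, plus strand, 2 coding exons: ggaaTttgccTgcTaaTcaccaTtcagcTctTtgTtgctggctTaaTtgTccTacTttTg
SEC61B, codons 68 to 87, chr9:99227999-99230394, plus strand, 2 coding exons: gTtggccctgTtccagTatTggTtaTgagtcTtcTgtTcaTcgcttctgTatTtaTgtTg
EMC7, codons 160 to 179, chr15:34088092-34090334, minus strand, 2 coding exons: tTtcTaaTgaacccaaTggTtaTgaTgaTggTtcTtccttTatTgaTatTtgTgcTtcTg
SRP72, codons 252 to 271, chr4:56478490-56478637, plus strand, 2 coding exons: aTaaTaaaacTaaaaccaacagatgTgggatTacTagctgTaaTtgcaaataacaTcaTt
SRP54, codons 336 to 355, chr14:35018724-35018983, plus strand, 2 coding exons: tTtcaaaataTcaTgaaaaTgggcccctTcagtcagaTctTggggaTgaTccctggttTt
The window of SPCS3 held 10 such codons, those of SSR1, SEC61A1 and SEC61B 14 each, that of EMC7 17, and those of SRP72 and SRP54 10 each. SSR1's stretch starts at the first codon, where its signal peptide lies, and SEC61B's lies in the tail that anchors the protein in the membrane. SPCS3, the member with the highest OMM value, thus had a window no richer than those of the 2 SRP proteins shown. Across the 35 members Spearman's rho between the window count and the log2 fold change was 0.38 at OMM and -0.09 at NLS, given as a description over genes that share libraries and vary in length.

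At OMM the question is which of these mRNAs were recovered more from labelled than from unlabelled cells. SPCS3, a signal peptidase subunit, was the member that rose, 3.79-fold, and no member fell at an adjusted p under 0.05 (edgeR quasi-likelihood F test, p-values adjusted over all genes by the Benjamini-Hochberg method). Of the 14438 genes tested 0.139% were called higher and 0.0554% lower (0.236% and 0.0709% of the 8467 protein-coding genes at or above the lowest member's mean CPM), so the test made few calls on any genes at OMM. At an unadjusted p under 0.05, 6 members were higher and 2 lower, and DESeq2 with its adjusted p called those same 6 higher (SPCS3, SSR1, SEC61A1, SRP72, TRAM1 and SSR3) and the same 2 lower (SRP54 and SRP14), against 6.39% and 5.58% of the genes it tested. The labelled libraries lay above both controls for 10 of the 35 members and below both for 9, against 21.3% and 22.5% of all genes tested, which are shares near those of genes at large. The median log2 fold change of the members was 0.01, beside -0.00 over all genes tested.

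**Figure D1:**
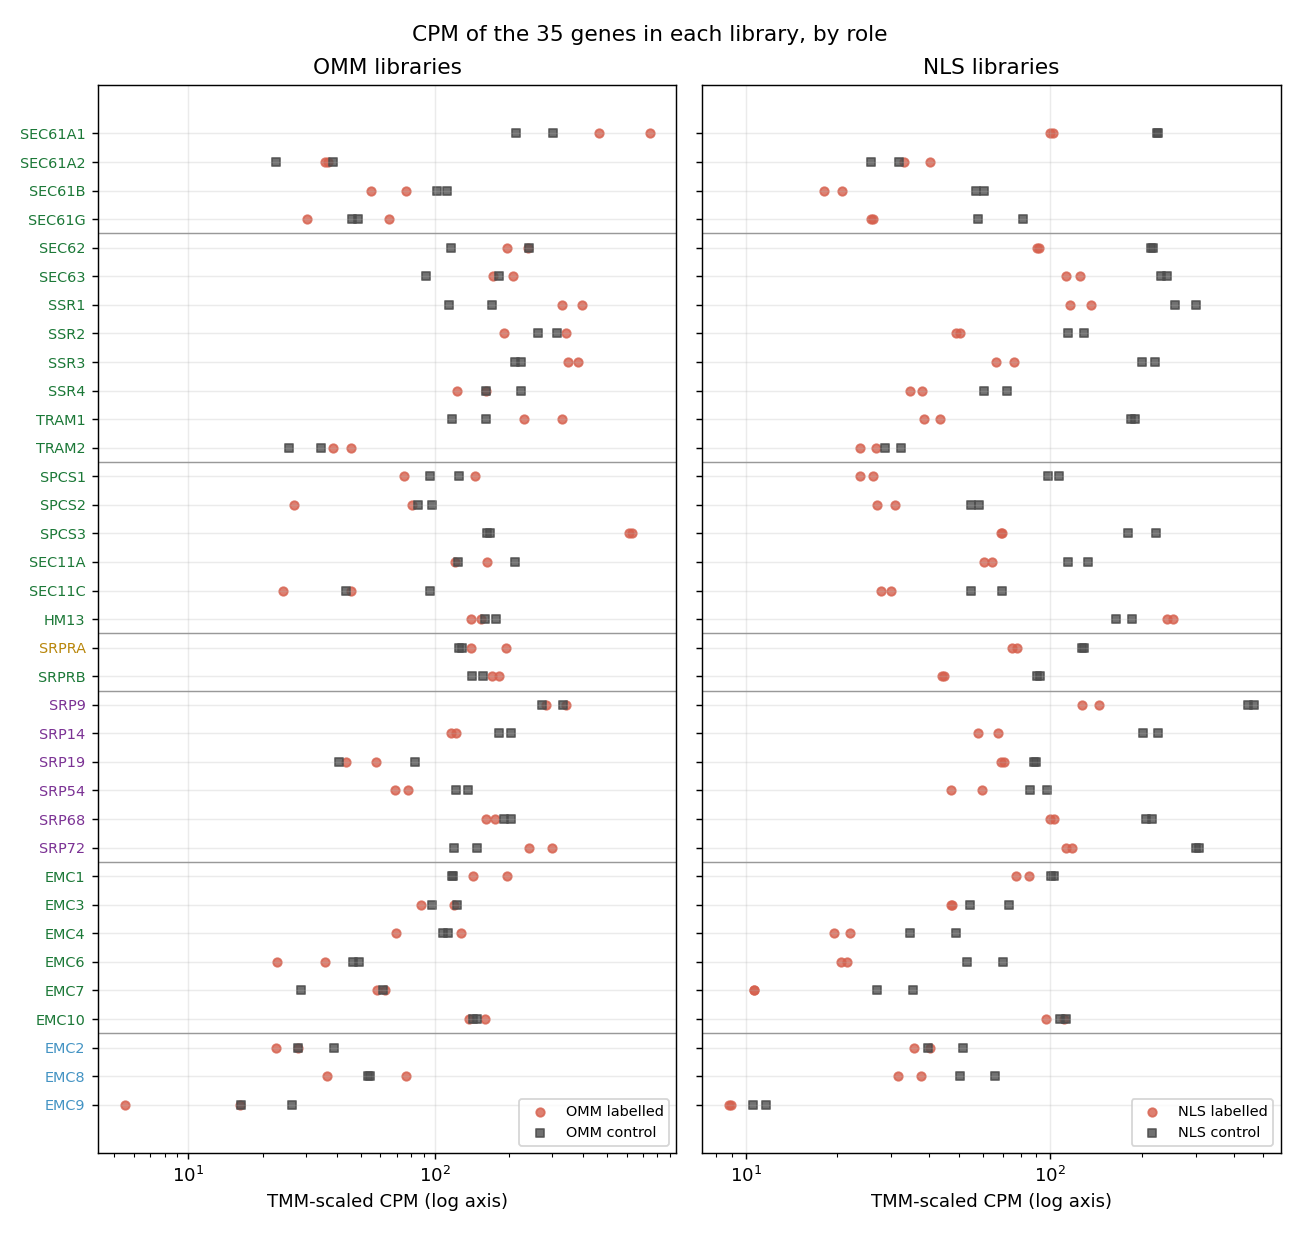
TMM-scaled CPM (log axes) of each of the 35 genes in the 4 OMM libraries (left) and the 4 NLS libraries (right), red circles for labelled and grey squares for control, grouped by role; gene names are green for membrane members, ochre for SRPRA, purple for cytosolic SRP proteins and blue for cytosolic EMC subunits. At OMM the red circles lie above both controls for 10 genes and below both for 9, and at NLS they lie below both for 31.

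Among the channel subunits, SEC61A1, which forms the pore, had 748 and 464 CPM in the labelled OMM libraries, against 213 and 302 CPM in the OMM controls. Both labelled libraries were above both controls, though they differed 1.61-fold from each other, and the log2 fold change of 1.23 ± 0.28 (SE, n = 2 per group) did not pass edgeR's test (adjusted p = 0.155). Its paralog SEC61A2 had 36.9 and 35.9 CPM in labelled libraries, against 38.7 and 22.6 CPM in controls, and the groups overlapped (log2 fold change 0.25 ± 0.48). SEC61B, the small tail-anchored subunit, had 76.1 and 55.1 CPM in labelled libraries, against 112 and 102 CPM in controls. Both labelled libraries were thus below both controls, with a log2 fold change of -0.71 ± 0.32 and an adjusted p from edgeR of 0.488. SEC61G, the other small subunit, had a log2 fold change of 0.01 ± 0.47. The channel genes thus ran from -0.71 to 1.23 at OMM, none passed the test, and differences among them were not tested.

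The partners of the channel had the highest median of the 7 roles at OMM, 0.48 over 8 genes, and 4 of them (SSR1, SSR3, TRAM1 and TRAM2) had both labelled libraries above both controls. SSR1, the alpha subunit of the translocon-associated protein (TRAP) complex, had 327 and 396 CPM in labelled OMM libraries, against 170 and 114 CPM in controls (log2 fold change 1.34 ± 0.26, adjusted p = 0.119 by edgeR and 3.67e-07 by DESeq2). SSR3, its gamma subunit, had 346 and 380 CPM in labelled libraries, against 211 and 224 CPM in controls (log2 fold change 0.74 ± 0.20). TRAM1, which lies beside the channel and contacts entering chains, had 231 and 328 CPM in labelled libraries, against 118 and 161 CPM in controls, a log2 fold change of 1.00 ± 0.27. For these 3 genes the groups stood apart but the edgeR test was not passed. TRAM2, its paralog, had 38.7 and 45.8 CPM in labelled libraries, against 25.6 and 34.4 CPM in controls (log2 fold change 0.49 ± 0.44). The other 2 TRAP subunits had log2 fold changes of -0.11 ± 0.29 (SSR2) and -0.44 ± 0.28 (SSR4), and their groups overlapped. SEC62 and SEC63, which also serve chains that reach the channel after synthesis, had 0.28 ± 0.35 and 0.47 ± 0.34.

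The signal peptidase genes spread widely at OMM. SPCS3 had 633 and 615 CPM in labelled OMM libraries, against 167 and 163 CPM in controls. The replicates agreed closely and the groups were far apart (log2 fold change 1.92 ± 0.19, adjusted p = 0.0218 by edgeR), and the call held under every alternative tried. SPCS1, another accessory subunit, had 75.1 and 145 CPM in labelled libraries, against 125 and 95.8 CPM in controls, with overlapping groups. SPCS2 had 26.9 and 80.4 CPM in labelled libraries, which differed 2.99-fold, the widest gap of any member, against 85.3 and 97.2 CPM in controls. The catalytic subunit SEC11A had 163 and 121 CPM in labelled libraries, against 212 and 124 CPM in controls (log2 fold change -0.24 ± 0.32), and its paralog SEC11C had 24.1 and 45.6 CPM, against 43.5 and 95.9 CPM in controls (-1.0 ± 0.52). Neither separated its groups. HM13, signal peptide peptidase, which cuts signal peptides within the membrane, had 154 and 140 CPM in labelled libraries, against 177 and 160 CPM in controls (-0.19 ± 0.24).

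Both SRP receptor genes had labelled OMM libraries above both controls, by little. SRPRA, the GTPase that docks the SRP, had 194 and 140 CPM in labelled libraries, against 126 and 129 CPM in controls (log2 fold change 0.38 ± 0.27). SRPRB, its membrane anchor, had 181 and 171 CPM, against 141 and 157 CPM in controls (0.24 ± 0.24). Neither difference exceeded its error by much, and neither passed the test.

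Of the 6 cytosolic SRP proteins, 1 lay above and 3 lay below the controls at OMM. SRP72, which with SRP68 forms the core heterodimer of the large domain, had 241 and 299 CPM in labelled OMM libraries, against 148 and 120 CPM in controls. That log2 fold change of 1.02 ± 0.24 had an adjusted p of 0.175 by edgeR and 1.43e-05 by DESeq2, and stands with the higher membrane members. SRP68 had 176 and 161 CPM in labelled libraries, against 191 and 203 CPM in controls (-0.23 ± 0.23), so the partners of 1 heterodimer lay on opposite sides of their controls. SRP54, the subunit that binds the signal sequence, had 78.0 and 69.2 CPM in labelled libraries, against 136 and 122 CPM in controls (-0.81 ± 0.28). SRP14, of the Alu domain that slows elongation, had 116 and 121 CPM in labelled libraries, against 203 and 183 CPM in controls (-0.70 ± 0.24). Its partner SRP9 had 283 and 339 CPM in labelled libraries, against 332 and 271 CPM in controls, and SRP19, which helps SRP54 onto the RNA, had 43.5 and 57.6 CPM, against 83.4 and 40.7 CPM. For both of these the groups overlapped.

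Among EMC genes no OMM value passed the test. Of the 6 membrane subunits, EMC1, the large lumenal subunit, had labelled libraries of 196 and 143 CPM, above controls of 118 and 117 CPM (log2 fold change 0.53 ± 0.27). EMC6, a core membrane subunit, had 22.8 and 35.9 CPM in labelled libraries, below controls of 49.3 and 46.5 CPM (-0.71 ± 0.45). EMC3, EMC4, EMC7 and EMC10 overlapped their controls, with log2 fold changes of -0.17 to 0.42. EMC10, a subunit with a lumenal domain, had 160 and 138 CPM in labelled libraries, against 143 and 148 CPM in controls. Of the cytosolic subunits EMC2 had 22.6 and 27.8 CPM in labelled libraries, against 39.1 and 28.0 CPM in controls (-0.41 ± 0.49). The paralogs EMC8 and EMC9, which take the same place in the complex, had 76.4 and 36.6 CPM against 54.7 and 53.5 CPM in controls, and 16.2 and 5.50 CPM against 26.4 and 16.4 CPM in controls. The labelled replicates of these paralogs differed 2.09-fold for EMC8 and 2.94-fold for EMC9, more than the groups did.

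In the nucleus the same genes moved largely one way. At NLS 29 of the 35 members fell, HM13 rose, and 5 (SEC61A2, TRAM2, EMC10, EMC2 and EMC9) did not pass the test, by the same edgeR test on 20858 genes. Of all genes tested 28.5% were called lower and 28.8% higher, and among the 10279 protein-coding genes at or above the lowest member's mean of 10.0 CPM, 50.1% were lower and 20.0% higher. The median log2 fold change was -1.04 over the members, 0.14 over all genes tested and -0.39 over those protein-coding genes. Both labelled libraries were below both controls for 31 members, above for 2 and overlapping for 2, where 37.8% of all genes were below and 45.1% above. The levels are shares of a library, so a fall is relative to the other RNA captured. In bulk samples neither the share of cells labelled nor the amount of an RNA per cell can be read from them. With library size alone in place of TMM the median of all genes moved to 0.66, with 9122 genes called higher and 3351 lower in place of 5999 and 5945. Among the members 7 changed sign (EMC1, EMC2, EMC3, EMC9, EMC10, SRP19 and TRAM2), and EMC4, EMC8, SRP54, SRPRA and SSR4 no longer passed, leaving 21 lower and 3 higher.

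**Figure D2:**
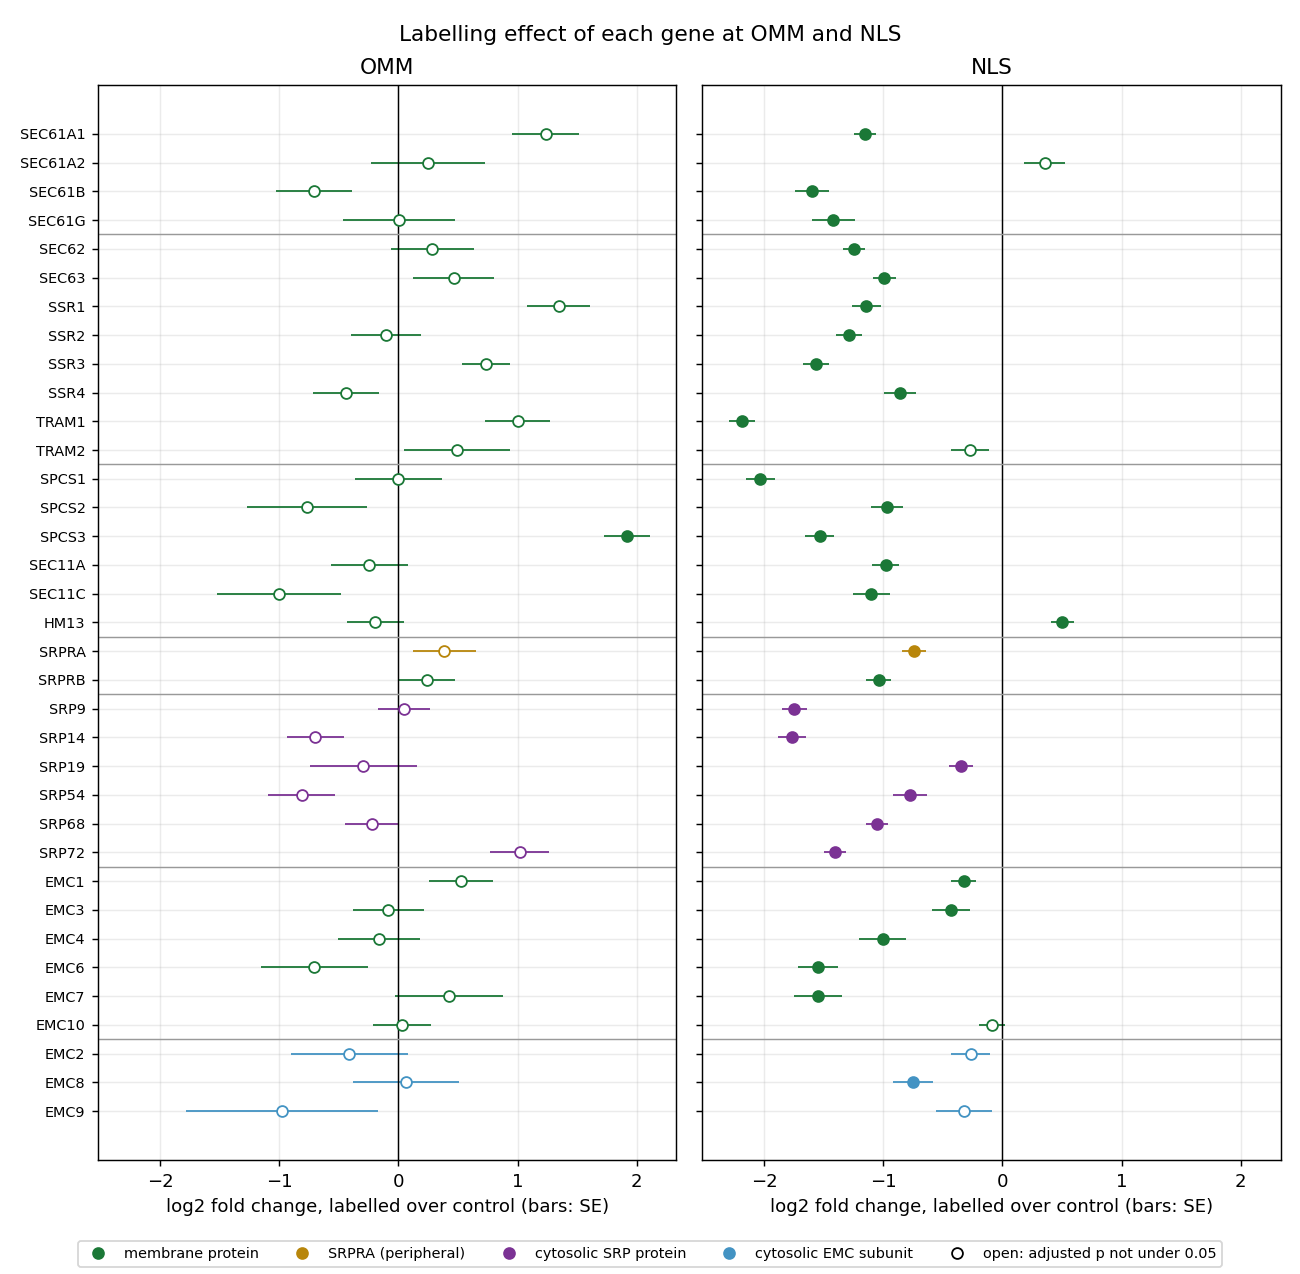
Log2 fold change of labelled over control libraries (bars are SE, n = 2 per group) for each gene at OMM (left) and NLS (right), with filled circles for adjusted p under 0.05 by edgeR, colours by protein location and grey lines between roles. At OMM only SPCS3 is filled and values fall on both sides of 0, and at NLS 29 filled circles lie below 0 and HM13 above it.

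The pore gene SEC61A1 had 100 and 102 CPM in labelled NLS libraries, against 224 and 226 CPM in NLS controls, and fell by 1.15 ± 0.09 on the log2 scale. SEC61B fell most among channel subunits, to 18.1 and 20.7 CPM in labelled libraries, against 60.5 and 56.9 CPM in controls (log2 fold change -1.60 ± 0.14, adjusted p = 6.22e-05 by edgeR). SEC61G fell by 1.42 ± 0.18. SEC61A2 stood apart from its paralog, with 33.2 and 40.2 CPM in labelled libraries, against 31.8 and 25.7 CPM in controls. Its labelled libraries were both above the controls, the log2 fold change was 0.35 ± 0.17 and the adjusted p from edgeR was 0.111.

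All 8 partners of the channel had labelled NLS libraries below both controls, and 7 passed the test. TRAM1 fell most of all 35 genes, 4.57-fold, to 38.4 and 43.5 CPM in labelled libraries, against 190 and 184 CPM in controls (log2 fold change -2.19 ± 0.11, adjusted p = 1.82e-05 by edgeR). TRAM2, with 26.8 and 23.7 CPM in labelled libraries against 32.4 and 28.8 CPM in controls, had a log2 fold change of -0.27 ± 0.16 and did not pass (adjusted p = 0.175 by edgeR). The TRAP subunits fell by 0.86 (SSR4) to 1.56 (SSR3) on the log2 scale. SSR1 had 116 and 136 CPM in labelled libraries, against 300 and 257 CPM in controls. SSR3 had 66.5 and 75.7 CPM, against 220 and 201 CPM in controls. SEC62 and SEC63 fell by 1.24 ± 0.09 and 0.99 ± 0.10. Thus the TRAP and TRAM genes highest at OMM were not the ones nearest to their controls at NLS.

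In the signal peptidase group all 5 signal peptidase genes fell at NLS. SPCS1 fell most, to 26.1 and 23.7 CPM in labelled libraries, against 98.0 and 107 CPM in controls (log2 fold change -2.03 ± 0.12), with 50.7% of its exonic bases overlapped by NEK4 on the other strand. Exonic bases are here those of all annotated transcripts of a gene merged, not of 1 transcript. The strand setting of the counting is not given in the sources used here, so reads of such overlapping genes are uncertain. SPCS3 had 69.6 and 69.0 CPM in labelled NLS libraries, against 222 and 180 CPM in controls, and fell by 1.53 ± 0.12. The catalytic paralogs fell alike, SEC11A by 0.98 ± 0.12 to 60.5 and 64.6 CPM in labelled libraries, against 133 and 114 CPM in controls, and SEC11C by 1.10 ± 0.16 to 27.9 and 30.1 CPM, against 54.9 and 69.7 CPM in controls. SPCS2 fell by 0.97 ± 0.14. HM13 was the exception, with 242 and 252 CPM in labelled libraries, against 165 and 185 CPM in controls (log2 fold change 0.50 ± 0.10, adjusted p = 0.00325 by edgeR). Both labelled libraries of HM13 were above both controls. MCTS2P lies on the same strand within its locus and overlaps 6.20% of its exonic bases.

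Both receptor genes fell at NLS. SRPRA had 74.7 and 78.0 CPM in labelled libraries, against 127 and 129 CPM in controls (log2 fold change -0.74 ± 0.10), which was -0.22 and did not pass with library size alone (adjusted p = 0.0823 by edgeR). SRPRB had 44.9 and 44.2 CPM, against 92.6 and 90.7 CPM in controls (-1.04 ± 0.11).

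All 6 cytosolic SRP proteins fell at NLS, though with library size alone SRP19 changed sign and SRP54 did not pass. SRP14 fell most, 3.40-fold, to 67.5 and 57.7 CPM in labelled libraries, against 201 and 226 CPM in controls (log2 fold change -1.77 ± 0.12, adjusted p = 2.24e-05 by edgeR). Its partner SRP9 fell to 127 and 144 CPM in labelled libraries, against 467 and 444 CPM in controls (-1.75 ± 0.10), so the 2 Alu-domain genes had nearly the same value. The large-domain pair SRP72 and SRP68 fell by 1.41 ± 0.09 and 1.06 ± 0.09 on the log2 scale. SRP72 had 118 and 112 CPM in labelled libraries, against 308 and 302 CPM in controls. SRP68 had 99.5 and 103 CPM, against 205 and 216 CPM in controls. SRP54 had 47.4 and 59.6 CPM, against 86.0 and 97.3 CPM in controls (-0.78 ± 0.14). SRP19 fell least, to 68.7 and 70.6 CPM in labelled libraries, against 89.5 and 88.3 CPM in controls (-0.35 ± 0.10, adjusted p = 0.0184 by edgeR), and 14.0% of its exonic bases are shared with ZRSR2P1 on the same strand. That call was lost with DESeq2 (adjusted p = 0.0938) and without either labelled NLS library.

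The role medians of the EMC members at NLS were -0.72 for the 6 membrane subunits and -0.32 for the 3 cytosolic ones. These leave out MMGT1, an EMC membrane subunit outside the 35 genes, which fell further (-1.94 ± 0.11). Of the 9 EMC members EMC6 had the lowest value and fell to 20.5 and 21.5 CPM in labelled libraries, against 53.4 and 70.0 CPM in controls (log2 fold change -1.55 ± 0.17), though P2RX5-TAX1BP3 on the other strand overlaps 74.3% of its exonic bases. EMC7 and EMC4 fell by 1.55 ± 0.20 and 1.01 ± 0.20. EMC3 and EMC1 fell by 0.43 ± 0.16 and 0.33 ± 0.10, calls lost with DESeq2 (adjusted p = 0.1 and 0.114) and without either labelled NLS library, and for EMC3 also without control 3, and both changed sign with library size alone (0.090 and 0.19). EMC10 had 96.7 and 111 CPM in labelled libraries, against 108 and 113 CPM in controls (-0.09 ± 0.11). EMC2 had 35.7 and 40.1 CPM, against 51.6 and 39.7 CPM in controls (-0.27 ± 0.16). Of the paralogs, EMC8 fell to 31.6 and 37.8 CPM, against 50.7 and 65.9 CPM in controls (-0.75 ± 0.17), while EMC9, the lowest member at 8.98 and 8.79 CPM against 10.6 and 11.7 CPM in controls, had -0.32 ± 0.24.

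The membrane members were then set beside the cytosolic SRP proteins. At OMM the median log2 fold change was 0.03 over the 25 membrane members and -0.26 over the 6 SRP proteins. Of the membrane members 8 had both labelled libraries above the controls, 4 below and 13 overlapping, and of the SRP proteins 1, 3 and 2. Over all genes tested at OMM 21.3% lay above and 22.5% below. At NLS the medians were -1.10 for the membrane members, of which 21 fell and 1 rose, and -1.23 for the SRP proteins, of which 6 fell. Of all genes tested at NLS 28.5% were called lower and 28.8% higher. For protein-coding genes at or above the lowest member's mean CPM the shares were 50.1% and 20.0%. The difference of medians, membrane minus SRP, was 0.29 at OMM and 0.13 at NLS, and carries no test because genes are not replicates. The ranges of the classes overlapped at both sites, from -1.0 to 1.92 for membrane members and from -0.81 to 1.02 for SRP proteins at OMM.

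The same contrast can be read within a library, free of scaling, as the summed counts of the 25 membrane genes over those of the 6 SRP genes. This ratio was 4.92 and 4.21 in labelled OMM libraries, against 3.03 and 3.43 in OMM controls. It was 2.84 and 2.87 in labelled NLS libraries, against 2.16 and 2.16 in NLS controls. At both sites the labelled libraries were above the controls, but 2 against 2 libraries allow no exact two-sided permutation p below 0.333. Single genes were also left out of the sums, a variant chosen after seeing the data. At OMM the ratio without SPCS3 was 4.24 and 3.62 in labelled libraries, against 2.88 and 3.25 in controls, and without SRP72 it was 6.63 and 5.89, against 3.50 and 3.93 in controls. At NLS the ratio without HM13 was 2.38 and 2.41 in labelled libraries, against 2.04 and 2.02 in controls, and without SRP9 it was 3.74 and 3.89, against 3.30 and 3.19 in controls. In each of these the labelled libraries stayed above the controls, by more at OMM without SRP72 and by less in the other 3. Leaving out 1 gene at a time does not show whether the membrane genes shared the higher ratio at OMM. Of the 25, DESeq2 called 5 higher there (SPCS3, SSR1, SEC61A1, TRAM1 and SSR3), and 13 overlapped their controls. The joint part of those 5 genes in the ratio was not tested. At NLS HM13 and SRP9 were not left out together, so whether the classes as a whole changed unequally there was not tested. A higher ratio at NLS, where both medians were negative, does not show that either class was retained.

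**Figure D3:**
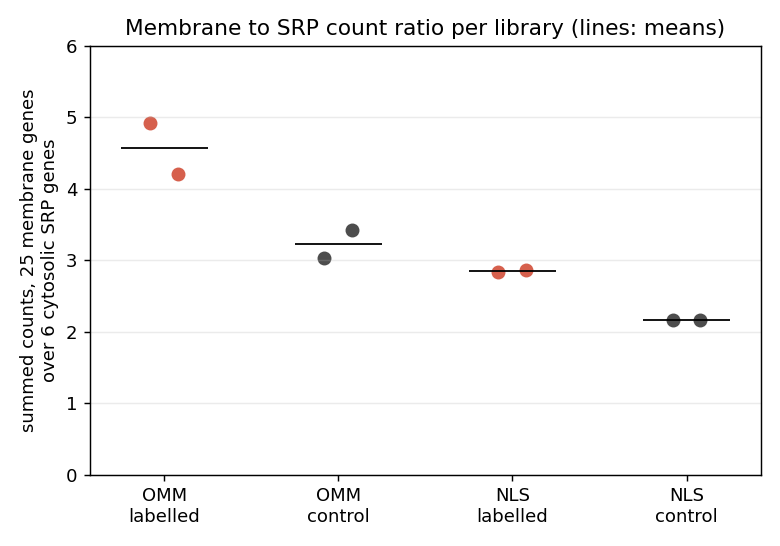
Summed counts of the 25 membrane genes over those of the 6 cytosolic SRP genes in each library (points, n = 2 per group), with lines at group means, for OMM labelled, OMM control, NLS labelled and NLS control. Labelled libraries lie above their controls at both sites, 4.92 and 4.21 against 3.03 and 3.43 at OMM, and 2.84 and 2.87 against 2.16 and 2.16 at NLS.

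Whether a gene's labelling effect differed between the sites was asked with an interaction test over all 8 libraries fitted together. The difference is given as the OMM effect minus the NLS effect. This joint fit used 1 estimate of spread per gene for both sites. In the separate fits the common coefficient of variation was 0.958 at OMM and 0.166 at NLS. The SE of a difference could thus be smaller than that of its OMM part (SRPRB, 0.19 against 0.24) or larger (SEC61A1, 0.37 against 0.28). SEs and p-values of differences may therefore understate the spread at OMM. The difference was positive and passed edgeR's test for 12 of the 35 members, and was negative and passed for none. The shares were 6.73% and 1.41% of the 23178 genes tested, and 10.5% and 1.49% of the protein-coding ones. Unlike those given for NLS and OMM, these protein-coding genes had no floor on mean CPM, so they are not matched to the members in level. At an unadjusted p under 0.05, 19 members were higher and 1 lower, and DESeq2 called 12 higher and HM13 lower, against 10.7% and 12.1% of the genes it tested. With library size alone 7 members were higher and 1 lower, with 584 genes higher and 381 lower in all, and the median over all genes was -0.57, against -0.11 with TMM. The calls depended on the NLS controls: without NLS control 1 or without NLS control 3 no member passed, as no gene did, with 16 and 13 members higher at an unadjusted p under 0.05. Without either labelled NLS library 6 members passed. The 12 of edgeR were 7 membrane members, SRPRA and 4 SRP proteins. DESeq2 called 11 of them higher and EMC7, leaving out SRPRA (adjusted p = 0.0513). The median difference was 0.91 for the membrane members and 0.97 for the SRP proteins, beside 0.40 over protein-coding genes, again with no floor on mean CPM. Since compartment and kit coincide, what each contributes to the difference cannot be told apart.

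The largest difference was that of SPCS3, 3.48 ± 0.21 (adjusted p = 0.00277 by edgeR), made of 1.92 at OMM and -1.53 at NLS. TRAM1 followed with 3.21 ± 0.31, mostly from its fall at NLS. SSR1, SRP72, SEC61A1 and SSR3 had 2.51 ± 0.33, 2.44 ± 0.24, 2.42 ± 0.37 and 2.32 ± 0.19. The other 6 that passed were SPCS1 (2.05), SRP9 (1.81), SRPRB (1.30), SRPRA (1.15), SRP14 (1.09) and SRP68 (0.86). SRP14 lay below its controls at both sites, with a value at OMM (-0.70) nearer to 0 than that at NLS (-1.77). SRP54 had nearly the same log2 fold change at OMM and NLS, for a difference of -0.01 ± 0.26. None of the 9 EMC members passed with edgeR (EMC7 had 1.99 ± 0.55, adjusted p = 0.0818 by edgeR and 0.0394 by DESeq2), but MMGT1, an EMC subunit outside the 35 genes, did, with 3.47 ± 0.24. HM13 had -0.67 ± 0.19 (adjusted p = 0.0893 by edgeR and 1.23e-07 by DESeq2).

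**Figure D4:**
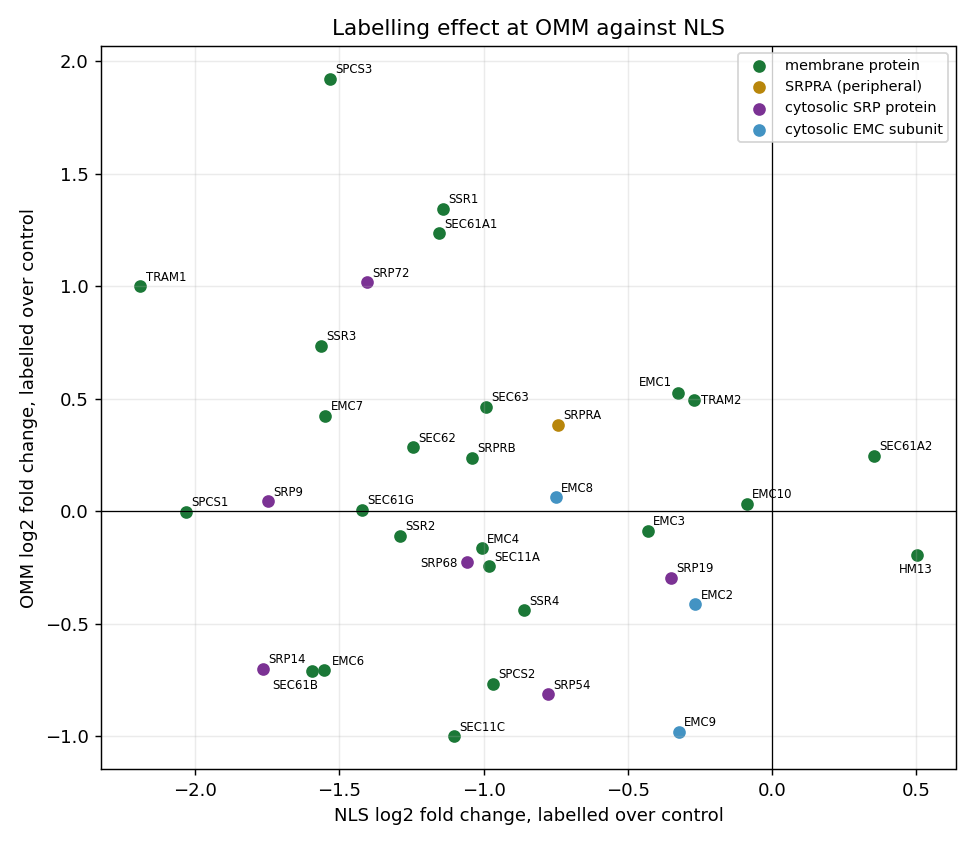
Log2 fold change of labelled over control at OMM (vertical) against NLS (horizontal), 1 point per gene, coloured by protein location. SPCS3, SSR1, SEC61A1, SRP72 and TRAM1 lie at the upper left, SRP14, SEC61B, EMC6, SRP54 and SEC11C at the lower left, and HM13 and SEC61A2 are the points right of 0.

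The values at the sites did not go together across the 35 members (Spearman's rho -0.17, a description over genes of shared libraries). At OMM they went with the length of the annotated transcript (rho 0.66) and of its 3′ untranslated region (0.67). Over protein-coding genes at or above the lowest member's mean CPM the rho with transcript length was 0.43, so the relation was not particular to these genes. Of the 12 membrane members with a transcript longer than their median of 2708 nt, 11 had a positive OMM value and 8 had both labelled libraries above the controls (median 0.51). Of the 13 at or under it, 3 had a positive value, none lay above both controls and 4 lay below (median -0.19). The split was made after the values were seen and carries no test, and among protein-coding genes 65.4% of the longer and 31.9% of the shorter were positive. Over all genes tested, of any length, 21.3% had both labelled libraries above the controls and 22.5% below. Those shares were not taken by length. SRP72 has the longest transcript of the SRP proteins, 4136 nt, and SEC61B the shortest of all members, 545 nt. Transcript length is that of 1 annotated form, which may not be the form these cells make, and its part in the membrane to SRP contrast was not tested. At NLS the value went with the number of exons (rho 0.47) and of coding codons (0.45) more than with transcript length (0.28).

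**Figure D5:**
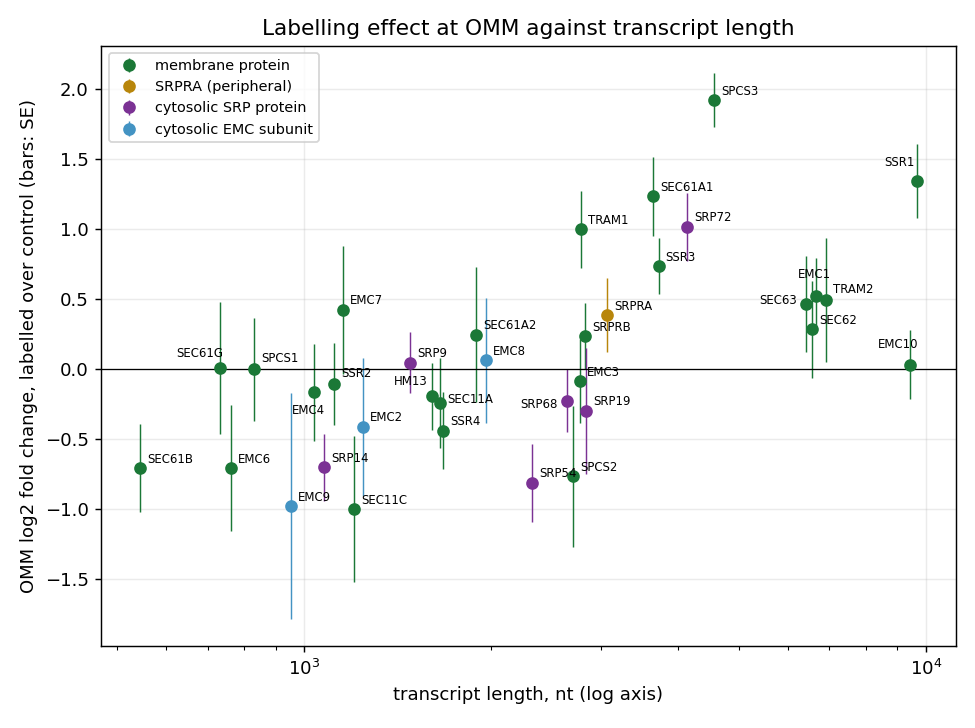
Log2 fold change of labelled over control at OMM (bars are SE, n = 2 per group) against the length of the annotated transcript in nucleotides (log axis), 1 point per gene, coloured by protein location. The points of transcripts over 2708 nt lie mostly above 0, with SPCS3 at 4571 nt highest, and SEC61B at 545 nt and EMC6 at 762 nt lie below 0.

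Levels per kilobase were taken over the merged exons of all annotated transcripts of a gene, so their order depends on the forms annotated. In both sets of controls SRP9 was highest, at 174 CPM per kb at OMM and 264 at NLS, and TRAM2 lowest, at 4.34 and 4.43 CPM per kb. In labelled libraries SRP9 was again highest (180 CPM per kb at OMM and 78.4 at NLS). The lowest was SRP19 at OMM (4.81 CPM per kb, with TRAM2 at 6.12) and TRAM2 at NLS (3.66 CPM per kb). Summed over the 35 genes, the TMM-scaled level was 5863 and 5671 CPM in labelled OMM libraries, against 4653 and 4386 CPM in OMM controls, and 2176 and 2282 CPM in labelled NLS libraries, against 4537 and 4584 CPM in NLS controls. As a share of all counts, with no scaling, the 35 genes took 0.593% and 0.594% in labelled OMM libraries, against 0.435% and 0.443% in controls, and 0.259% and 0.274% in labelled NLS libraries, against 0.383% and 0.378% in controls. The higher sum at OMM lay in the 6 genes that DESeq2 called higher there, chosen by that outcome and given as a description, with 2527 and 2481 CPM in labelled libraries, against 1027 and 1084 CPM in controls. The other 29 genes summed to 3336 and 3191 CPM in labelled OMM libraries, against 3626 and 3302 CPM in controls, and these groups overlapped.

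Other genes linked to ER targeting, insertion and the channel were taken from 4 lists of 28 genes in all. At OMM none of the 28 passed edgeR's test, which called 0.139% of all genes tested higher and 0.0554% lower. At an unadjusted p under 0.05, 5 were higher and 1 lower, where 1524 of the 14438 genes tested had such a p. DESeq2 called 3 higher (MMGT1, CCDC47 and HSPA5) and SGTA lower, against 6.39% and 5.58% of the genes it tested. At NLS 23 were called lower by edgeR and SIL1 higher, against 28.5% and 28.8% of all genes tested. Among protein-coding genes at or above the lowest member's mean CPM, 50.1% were lower and 20.0% higher. The difference between the sites was positive and passed edgeR's test for 12 of the 28 genes. Of all genes tested 6.73% did so, and of the protein-coding ones 10.5%. Among the 13 ER insertion factors, MMGT1, the EMC subunit also called EMC5, had 211 and 269 CPM in labelled OMM libraries, against 76.5 and 92.0 CPM in controls (log2 fold change 1.51 ± 0.26, adjusted p = 0.0828 by edgeR). It was the lowest of its list at NLS (-1.94 ± 0.11). RAB5IF was lowest at OMM (-0.44 ± 0.28) and TMEM208 highest at NLS (-0.21 ± 0.20).

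Of the 4 ribosome and ER anchors, CKAP4 was highest at OMM (0.83 ± 0.34) and lowest at NLS (-1.90 ± 0.13), and RRBP1 was lowest at OMM (0.10 ± 0.27) and highest at NLS (-0.39 ± 0.15). Of the 4 lumenal partners of the channel, HYOU1 was highest at OMM (0.81 ± 0.32) and SIL1 lowest (0.00 ± 0.60). HSPA5, the lumenal chaperone BiP, fell most at NLS (-2.04 ± 0.11), and SIL1, its nucleotide exchange factor, rose (1.09 ± 0.28). The 7 cytosolic targeting factors all fell at NLS, from GET4 (-0.44 ± 0.14) to BTF3 (-2.10 ± 0.10). At OMM they ran from 0.11 ± 0.33 for BAG6 to -0.79 ± 0.31 for SGTA, with a median of -0.26, the same to 2 decimals as that of the SRP proteins. For the membrane insertion factors the OMM median was 0.09.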

How the data were processed

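The authors deposited whole read counts per gene for the NLS and OMM pull-downs, with gene symbols per the file headers. The submitters' processing notes name HTSeq, STAR, Trimmomatic, SAMtools, bedtools and DESeq2, with hg38 and GRCh38.p13 as builds. Tool versions and the strand setting are not given in these sources. Per gene, log2 fold changes and p-values were deposited too. That p-value lay within 1.60% of the adjusted p of DESeq2 run here for the 35 genes, so it is read as an adjusted one. Where it was under 0.05, the authors' deposited table had 6 of the 35 genes higher and 2 lower at OMM, and 1 higher and 26 lower at NLS. DESeq2 run here gave the same fold changes to within 4.81e-08. The tables held 4 count columns and 2 comparison columns that match no sample label, and these were not used. Column numbers (1 and 3 at NLS, 2, 3 and 4 at OMM) differ from title numbers, so columns were mapped to groups only.

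Counts were tested with edgeR 4.0.16 (limma 3.58.1, R 4.3.3), robust quasi-likelihood F test, two-sided, TMM scaling, filterByExpr with a minimum count of 10, prior count 0.125, and Benjamini-Hochberg adjustment over all genes at 0.05. NLS and OMM were fitted apart, and the interaction in a joint fit of 8 libraries. DESeq2 1.42.0, library size alone, no filter, leaving out each library and a replicate block were alternatives. Each SE is the log2 fold change over the square root of its F value. Replicates differed beyond sampling noise (chi-square per degree of freedom 4.55 to 225), so each counts as 1. Floors cover counting error only. Transcript lengths and codon windows come from 1 GENCODE 29 transcript per gene, chosen by principal status, then coding and total length. Exonic bases, used for overlaps and for levels per kilobase, are the merged exons of all annotated transcripts of a gene.

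Members and lists were chosen with earlier results of these data known. Values in every library are given for the highest and lowest gene of each role at NLS, the 3 highest and 3 lowest at OMM, genes called at OMM, the 6 largest called differences, all SRP proteins and paralog pairs. Genes of the other lists are given by counts, with the highest and lowest of each.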

Additional observations from a re-analysis of the deposited data

Results flagged for a closer look

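For 12 genes the labelling effect differed between the sites by the interaction test in edgeR, and these values are given again here with no weighing. The OMM effect minus the NLS effect, on the log2 scale, was 3.48 for SPCS3, 3.21 for TRAM1, 2.51 for SSR1, 2.44 for SRP72, 2.42 for SEC61A1 and 2.32 for SSR3. It was 2.05 for SPCS1, 1.81 for SRP9, 1.30 for SRPRB, 1.15 for SRPRA, 1.09 for SRP14 and 0.86 for SRP68. Kit and RNA selection differ between the sites in the same way, so site and kit cannot be told apart. The joint fit used 1 estimate of spread per gene for both sites and may understate that at OMM. None of the 12 passed without NLS control 1 or without NLS control 3. Groups of 2 libraries are too small for a test of single outlying samples.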

How the results depend on the processing

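At NLS, the block of the replicate number (replicate block) left 29 members lower and 1 higher, with all 35 calls the same. Across genes, deviations of same-numbered libraries had a correlation of -0.033. With 1 difference between libraries per arm, this cannot tell whether same-numbered libraries came from 1 culture or batch. No paired analysis was possible at OMM because its arms share only 1 number. Library size alone gave 3 members higher at NLS and medians of -0.58 (membrane) and -0.71 (SRP), and changed the sign of EMC1 (0.19), EMC10 (0.43), EMC2 (0.25), EMC3 (0.090), EMC9 (0.20), SRP19 (0.17) and TRAM2 (0.25). It also ended the calls of EMC4, EMC8, SRP54, SRPRA and SSR4 and called SEC61A2 higher (0.87). Leaving out single libraries gave 1 to 2 higher and 26 to 29 lower at NLS, a membrane median of -1.17 to -1.03, and EMC10 at -0.15 to 0.032.

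At OMM, 6 members were higher and 2 lower with DESeq2, and 5 were higher with no filter. SPCS1, near 0, turned positive with DESeq2 (0.0024), library size alone (0.094) and no filter (0.0092). Leaving out single OMM libraries gave 3 to 4 members higher and 0 to 1 lower, SPCS2 being lower without labelled 3 (-1.76). The membrane median ran from 0.032 to 0.23, the SRP median from -0.45 to -0.037 and their difference from 0.23 to 0.54. Values near 0 changed sign: SEC11A (-0.57 to 0.19), SEC61G (-0.64 to 0.46), SPCS1 (-0.55 to 0.40), SRP19 (-0.72 to 0.31), EMC3 (-0.31 to 0.12), EMC7 (-0.016 to 1.07), SEC61A2 (-0.083 to 0.68), SEC62 (-0.14 to 0.90), SRP9 (-0.087 to 0.19), SSR2 (-0.58 to 0.26), EMC10 (-0.072 to 0.14), EMC8 (-0.56 to 0.50) and EMC4 (-0.66 to 0.21).

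The count of positive differences between sites was 7 with library size alone, with 1 negative (1 also with DESeq2), and 0 to 16 when single libraries were left out. The causes were not tested. Groups held 2 libraries each, and labelled OMM replicates of a member differed by up to 2.99-fold. The size of change detectable at OMM was not estimated.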
